A study of Mus musculus with 14 samples.

Results

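Cst3, Gsn, Apod and Serpinf1 are 4 genes of secreted proteins of connective tissue, taken from the 9558 gene rows measured in single cells of adult mouse bone, 1 row each. They were chosen by symbol with their high levels in these same cells known, so their levels are a description and are not tested. The 14 cells carried the red protein Tomato and came from long bones of adult mice of the genotype Prrx1-CreERT;Tomato and the strain C57BL/6. All had received tamoxifen daily for 3 days, at 2 mg per 30 g. In this line the promoter of Prrx1, a gene of limb mesenchyme, drives a Cre recombinase that tamoxifen activates, and recombination turns on Tomato. Red cells are those in which the promoter was active while tamoxifen was present, and their offspring. Tibiae, radii and ulnae were cleared of marrow, cut up and treated with collagenase, after which Tomato-positive cells were sorted and taken singly. There was 1 group without an untreated control, and no animal was named, so the cells count as 1 sample and no test between samples was possible.

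Cst3 encodes cystatin C, a small secreted inhibitor that blocks cysteine cathepsins, the proteases of lysosomes and of bone resorption. Gsn encodes gelsolin, which severs and caps actin filaments and exists as a cytoplasmic form and as a secreted form that clears actin from body fluids. Apod encodes apolipoprotein D, a lipocalin that carries small hydrophobic molecules such as arachidonic acid. Serpinf1 encodes pigment epithelium-derived factor, a secreted serpin that does not inhibit proteases and restrains blood vessel growth, and its loss in people causes a form of osteogenesis imperfecta. Fibroblasts and other stromal cells are known to make all of them, and macrophages also make cystatin C.

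In GRCm38 with GENCODE M21, Cst3 (ENSMUSG00000027447) spans 148871722 to 148875692 of chromosome 2 on the minus strand, and Gsn (ENSMUSG00000026879) spans 35256380 to 35307892 of chromosome 2 on the plus strand. Apod (ENSMUSG00000022548) spans 31296192 to 31314808 of chromosome 16, minus strand, and Serpinf1 (ENSMUSG00000000753) spans 75409769 to 75422701 of chromosome 11, minus strand. All are protein-coding. Gsn has several annotated starts, and the table gives 1 value for the gene, so the secreted and the cytoplasmic form of gelsolin cannot be told apart.

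The DNA before the starts of the 4 genes is shown side by side. Its relation to how evenly the genes were spread over the cells was not tested. The RefSeq promoter table (GRCm38.p6) held 1 window each for Cst3, Apod and Serpinf1 and 3 for Gsn, of which the first and the third are shown. Each stretch runs 5′ to 3′ on the gene's strand, lies within the 250 bases before the RefSeq start and stops short of any annotated exon of the gene. Capitals mark the GC box GGGCGG and the CCAAT box CCAAT, each searched on both strands.
Cst3, chr2:148875693-148875762, minus strand: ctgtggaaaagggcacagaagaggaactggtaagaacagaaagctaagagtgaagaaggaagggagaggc
Gsn at the first start, chr2:35256109-35256358, plus strand: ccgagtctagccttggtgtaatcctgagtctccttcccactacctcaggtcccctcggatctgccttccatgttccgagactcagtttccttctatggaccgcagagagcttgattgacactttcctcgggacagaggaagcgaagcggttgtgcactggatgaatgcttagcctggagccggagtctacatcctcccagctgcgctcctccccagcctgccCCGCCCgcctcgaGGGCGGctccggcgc
Gsn at the third start, chr2:35282130-35282379, plus strand: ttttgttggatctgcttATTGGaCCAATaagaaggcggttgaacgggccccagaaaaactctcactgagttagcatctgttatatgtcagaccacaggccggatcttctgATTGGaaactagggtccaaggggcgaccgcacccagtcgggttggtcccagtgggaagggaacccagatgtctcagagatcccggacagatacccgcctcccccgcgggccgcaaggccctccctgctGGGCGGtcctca
Apod, chr16:31314809-31315058, minus strand: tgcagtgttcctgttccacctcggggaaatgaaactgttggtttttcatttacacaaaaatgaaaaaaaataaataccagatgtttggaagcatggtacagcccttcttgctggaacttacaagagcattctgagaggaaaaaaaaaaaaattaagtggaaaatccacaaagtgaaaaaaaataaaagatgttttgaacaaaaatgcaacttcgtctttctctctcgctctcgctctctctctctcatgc
Serpinf1, chr11:75422702-75422873, minus strand: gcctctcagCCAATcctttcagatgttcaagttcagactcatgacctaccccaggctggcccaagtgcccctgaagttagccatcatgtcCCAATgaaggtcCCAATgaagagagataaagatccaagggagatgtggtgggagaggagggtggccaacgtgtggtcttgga
Over the whole 250 bases, the Cst3 window held 1 GC box, the first Gsn window 2 and the third Gsn window 1. The Apod and Serpinf1 windows held 0. The 70 bases shown for Cst3 also held 0, so its GC box lay at least partly past the point where an annotated exon begins. GC boxes occurred in 32.7% of the 32851 windows of the table. The CCAAT box was found 3 times before the third Gsn start and 3 times in the Serpinf1 window, and 33.8% of all windows had at least 1. The TATA box, searched as TATAAA on both strands, was in none of these windows and in 12.4% of all windows. G and C made up 36.4% of the Apod window, and 6.74% of all windows had that little or less. The share was 59.6% in the whole Cst3 window and 48.6% in the 70 bases of it shown. These are matches of letters only.

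All levels below are log2 values of quantile-normalized FPKM, which is the fragment count scaled by transcript length and library size, with a pseudocount of 1. Each cell holds the same set of values, so a level places a gene within its cell and does not show how much RNA the cell held. Between 7304 and 8027 rows were above 0 per cell, and depth is unknown because the table gives no counts. A gene was called detected at a level of 1 or more. In each cell 5066 of the 9558 rows met this, so it is a cut by rank. Blood cell genes were found in all cells, with the neutrophil genes Camp at 6.44 or above and Retnlg at 5.47 or above in each. By list means, the pan-haematopoietic genes were highest in cells 11 and 14. The neutrophil genes were highest in cells 6, 8, 11 and 14, most in cell 6. The 11 measured pan-haematopoietic markers averaged 7.97 in cell 11, with 10 detected, and 9.12 in cell 14, with all 11 detected. Their means were 1.51 to 5.94 in the other 12 cells, with 5 to 10 detected. Among these, cell 8 was at 5.94, cell 7 at 5.50 and cell 6 at 5.07. The CD45 gene Ptprc, a leukocyte marker, had levels of 8.31 in cell 11 and 6.51 in cell 14, and at most 3.27 elsewhere. The mean of 9 neutrophil markers was 10.23 in cell 6, with all 9 detected, 8.97 in cell 14, 8.84 in cell 11 and 7.29 in cell 8. The remaining 10 cells had neutrophil means of 2.55 to 5.78. Correlations are therefore also given without cells 11 and 14, or without cells 6, 8, 11 and 14, where this moves them. The 22 fibroblast matrix markers averaged 3.27 in cell 14 and 6.24 in cell 11, against 5.12 to 8.16 in the other 12 cells.

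All 4 genes were detected in all 14 cells. Of all rows, 15.8% were, and nothing is read from the difference, since the genes were picked for their levels. Cst3 and Gsn were at 5 or more in all 14 cells, as were 2.46% of rows, Serpinf1 in 13 cells and Apod in 7. The median position within the cell was at or above percentile 95 for Cst3, Gsn and Serpinf1, as for 3.4% of all rows, but not for Apod. By these levels Apod was abundant in some cells only. Back-transformed to FPKM, the 4 genes together held between 0.170% of the cell's sum in cell 4 and 4.21% in cell 2.

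**Figure D1:**
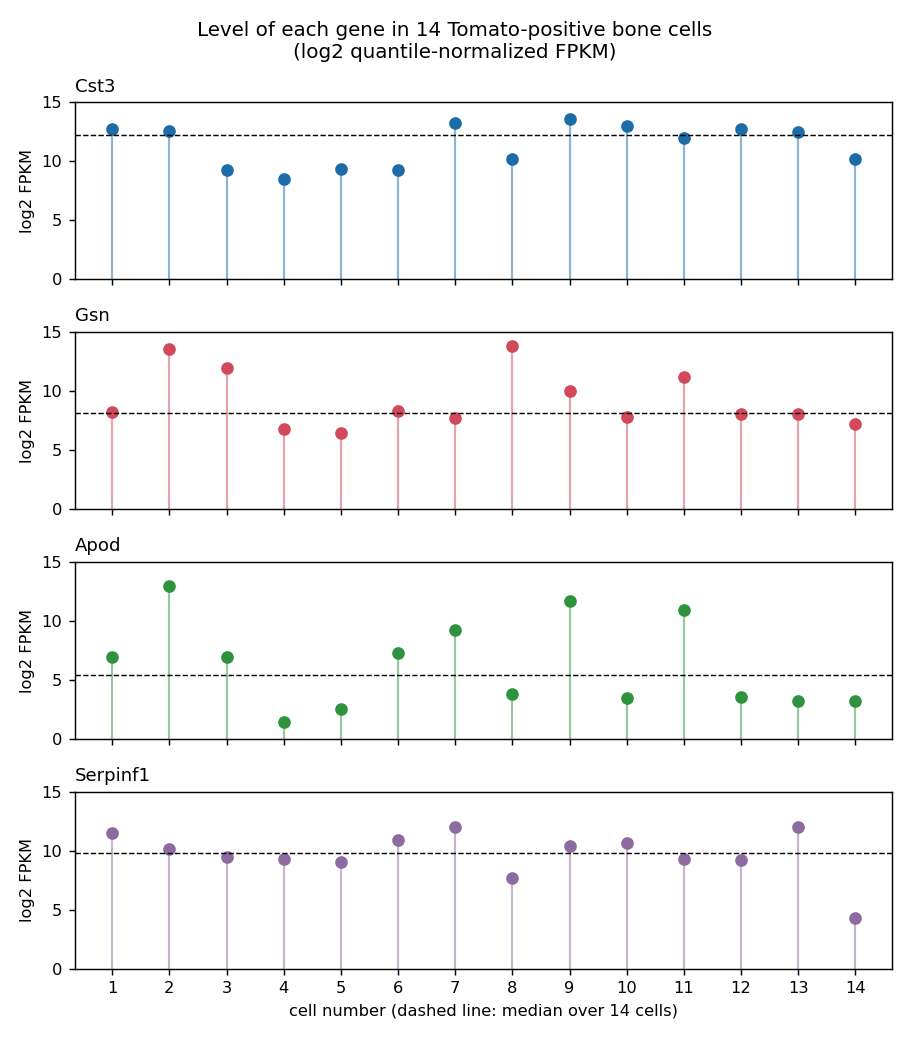
Level of Cst3, Gsn, Apod and Serpinf1 (log2 quantile-normalized FPKM, vertical axes from 0) in each of the 14 cells (horizontal axis), with the median over cells as a dashed line. Cst3 stays at 8.46 or above in every cell, Apod runs from 1.42 in cell 4 to 12.96 in cell 2, and the low point of Serpinf1 is cell 14 at 4.29.

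Cst3, the cathepsin inhibitor gene, had the highest median of the 4. Its level was lowest in cell 4 at 8.46, had a median of 12.24 and was highest in cell 9 at 13.56, with an SD of 1.80 over the cells. By its mean it took place 12 among all rows, and it was among the 100 highest rows of its cell in 8 cells. In cell 9 it took place 3 among the rows of the cell, in cell 7, at 13.22, place 4, and in cell 10, at 12.96, place 5. The largest gap between the Cst3 values of the cells was 1.79, slightly less than the SD. Cst3 was between 12.01 and 13.56 in 8 cells and between 8.46 and 10.22 in the other 6, namely cells 3, 4, 5, 6, 8 and 14. Its lowest position in any cell was percentile 96.2, in cell 4.

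Serpinf1 was high in 13 of the 14 cells. It ranged from 4.29 in cell 14 to 12.07 in cell 7, with a median of 9.79 and an SD of 2.00. Cell 13 followed cell 7 closely at 12.01, and cell 1 was at 11.52. The next value above cell 14 was 7.68 in cell 8, a gap of 3.39 that exceeded the SD. Cell 14 was also the cell with the highest macrophage list mean, 9.82 over 5 markers, with Lyz2, the macrophage lysozyme gene, at 13.56. The part of blood cell RNA in this level was not tested. Without cells 11 and 14, Serpinf1 had an SD of 1.33 and a median of 10.28.

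Gsn was moderate in most cells and very high in a few. Its lowest level was 6.43 in cell 5, its median 8.17 and its highest 13.82 in cell 8, with an SD of 2.45. In cell 8 it took place 2 among all rows, and in cell 2, at 13.56, place 3. Cells 3, 11 and 9 followed at 11.97, 11.17 and 9.99. The remaining 9 cells lay close together, between 6.43 and 8.35.

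Apod, the lipocalin gene, varied most. It ranged from 1.42 in cell 4 over a median of 5.39 to 12.96 in cell 2, where it took place 5 among all rows. Its SD of 3.76 was the largest of the 1506 rows detected in all 14 cells, of which 791 had a larger SD than Cst3, 637 than Serpinf1 and 268 than Gsn. The largest gap in Apod, 3.17, was less than its SD and divided the cells evenly. Cells 1, 2, 3, 6, 7, 9 and 11 held 6.97 to 12.96, and cells 4, 5, 8, 10, 12, 13 and 14 held 1.42 to 3.80. Within its cell Apod stood between percentile 53.0 in cell 4 and almost the top in cell 2, with a median of 82.6.

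**Figure D2:**
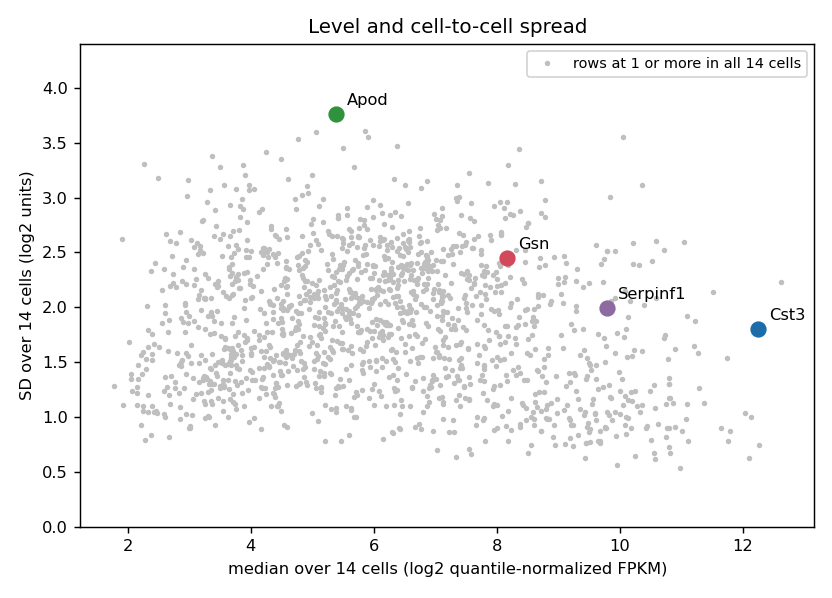
Median level over 14 cells (horizontal axis, log2 quantile-normalized FPKM) against the SD over the cells (vertical axis, log2 units) for every row at 1 or more in all 14 cells (grey) and for the 4 genes (coloured). Apod lies above all grey points at an SD of 3.76, and Cst3 lies at the right with a median of 12.24.

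The medians ran in the order Cst3, Serpinf1, Gsn and Apod, and the ranges of neighbours in this order overlapped. These levels are per length. Within cells, Cst3 was above Serpinf1 in 11 of 14, by a median of 1.75, which was less than the SD of either gene. Gsn minus Serpinf1 had a median of -1.84, with Serpinf1 higher in 9 cells, again less than either SD. Gsn was above Apod in 12 cells, by a median of 3.92, which was more than either SD. Cst3 was the highest of the 4 in 9 cells, Gsn in cells 2, 3 and 8, and Serpinf1 in cells 4 and 6. Apod was the lowest in 10 cells. The libraries read 3′ ends, and with the division by transcript length undone Serpinf1 was highest in 4 cells, Gsn in 4 and Cst3 in 6, while Apod was still the lowest in 10.

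Single cells combined the 4 genes in different ways. Cell 2 had all of them above 10, with 12.56 for Cst3, 13.56 for Gsn, 12.96 for Apod and 10.13 for Serpinf1. Cell 11 had the most even set, between 9.29 for Serpinf1 and 12.01 for Cst3. Cell 8 had the widest, with Gsn at 13.82 and Apod at 3.80, a spread of 10.01. Cell 4 had Serpinf1 at 9.32 and Cst3 at 8.46 but Apod at 1.42, and cells 4 and 5 had none of the 4 above 10. Cells 2 and 7, the highest for the leptin receptor gene Lepr at 10.56 and 9.97, had Apod at 12.96 and 9.23 and Gsn at 13.56 and 7.71. Cells 6, 10 and 13, the highest for the osteoblast gene Ifitm5, had Serpinf1 at 10.96, 10.70 and 12.01 and Apod at 7.28, 3.47 and 3.23.

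The 4 genes were compared with each other over the 14 cells. Spearman's rho was 0.697 for Gsn and Apod, the highest of the 6 pairs, and lay between 0.621 and 0.802 with each cell left out in turn. A rho this high or higher was found for 0.860% of the 972315 pairs among 1395 other rows detected in all cells. The rho was 0.471 for Cst3 and Apod, 0.429 for Cst3 and Serpinf1 and 0.371 for Apod and Serpinf1. Gsn had a rho of 0.0902 with Cst3 and 0.0330 with Serpinf1. All these coefficients are descriptions over cells that share 1 preparation and 1 set of normalized values. The cells also differ in which rows were at 0, by which cells 3, 4, 11, 12 and 13 form one set and the other 9 cells another. All 4 genes overlapped between these sets. The medians lay furthest apart for Apod, which had a median of 3.59 and a range of 1.42 to 10.94 in the smaller set, and a median of 6.98 and a range of 2.57 to 12.96 in the larger.

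By a fixed rule, the 5 genes most like each of the 4 were the rows with the highest rho over the 14 cells among the 1395 rows. The closest partner of a row had a median rho of 0.833, so a high value is usual among so many rows. The named genes depend on the choices made. With rows at 1 or more in at least 7 cells admitted, 3 of the 5 remained for Cst3 and 2 of the 5 for each of Gsn, Apod and Serpinf1. Apod was most like Ogn, which encodes the small leucine-rich proteoglycan osteoglycin, with a rho of 0.916, and 91.5% of rows had a closest partner with that rho or less. Ogn ranged from 1.53 in cell 5 to 10.39 in cell 2. The 7 cells highest for Apod were also the 7 highest for Ogn, at 6.27 to 10.39, and in the other 7 cells Ogn lay between 1.53 and 2.70. The next were AW112010 (0.912), the chemerin gene Rarres2 (0.895), the complement C1 inhibitor gene Serping1 (0.864) and the spectrin gene Sptbn1 (0.793). In cells 2 and 9, the highest for Apod, Rarres2 reached 12.77 and 11.55, and in cell 4, the lowest, it was at 1.73. Unlike Ogn it was also high in cells 8 and 12, at 8.40 and 8.83, where Apod was at 3.80 and 3.59.

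Cst3 was most like B2m, which encodes the light chain of MHC class I, at a rho of 0.856, followed by the lumican gene Lum (0.829), Cd302 (0.814), Rnaset2b (0.774) and Tab2 (0.752). Lumican is a proteoglycan that organizes collagen fibrils. Lum was highest in cell 1, at 12.14, and lowest in cell 14, at 4.56, where Cst3 was at 12.77 and 10.16. Rnaset2b has a near-identical copy in the mouse genome, so its value is uncertain. Gsn was most like Pabpc1, the poly(A)-binding protein gene (0.903), the chromatin remodeller gene Smarca5 (0.868), Entpd2 (0.846), Plxdc2 (0.833) and Ifi205 (0.820). Serpinf1 was most like the gelatinase gene Mmp2 (0.864), Dhx30 (0.846), Cd200 and Nedd4 (both 0.758) and Ptov1 (0.754). This set was the least stable, since 1 of the 5 remained with Pearson's r and 2 without cells 11 and 14. Mmp2 was lowest in cell 14 at 2.05 and next lowest in cell 8 at 2.43, the lowest cells for Serpinf1. At the other end, the lowest rho was -0.895 for Serpinf1 with Arhgdia, -0.899 for Gsn with Sdhd, -0.846 for Apod with Atp5d and -0.781 for Cst3 with Txn1.

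**Figure D3:**
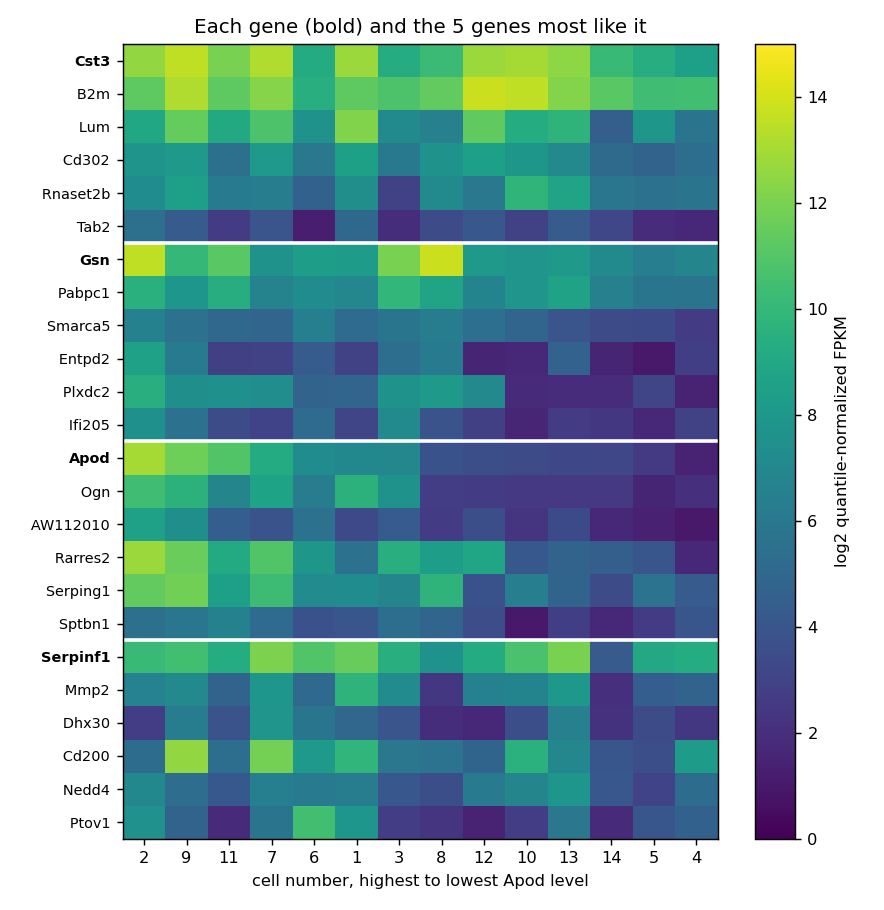
Levels (colour, log2 quantile-normalized FPKM) of the 4 genes (bold) and of the 5 genes most like each (rows) in the 14 cells (columns), which run from the highest to the lowest Apod level. Ogn lies at 2.70 or below in the same 7 cells in which Apod lies at 3.80 or below, and Gsn peaks at 13.82 in cell 8, which is one of them.

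A list of 29 other secreted stromal proteins was set beside the 4 genes. Every one had a row, and 28 reached a level of 1 in at least 7 cells, as did 51.7% of all rows. Apod had a rho of 0.7 or more with 9 of the 28, and 3.37% of all rows so detected reached that. The complement genes among the 9 were C4b (0.833), C1s1 (0.811) and C1ra (0.807), and the chemokine genes were Cxcl12 (0.833) and Ccl11 (0.701). The others were Ogn, the insulin-like growth factor binding protein gene Igfbp5 (0.815), the fibulin gene Fbln1 (0.789) and Clec3b (0.745). C4b has a close copy in mice, so its value is uncertain. The median rho over the 28 was 0.499 for Apod, against 0.0681 over all rows detected in at least 7 cells.

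The other 3 genes had fewer such partners in the list. Gsn reached 0.7 with 1 of the 28, the protease inhibitor gene Timp3 (0.723), where 1.46% of rows did, and Cst3 with 1, Lum, where 0.568% of rows did. Serpinf1 reached it with none, where 0.385% of rows did. The median rho over the 28 was 0.437 for Gsn, 0.363 for Cst3 and 0.212 for Serpinf1. For the mean of the list, rho was 0.820 with Apod, 0.587 with Gsn, 0.393 with Serpinf1 and 0.385 with Cst3.

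Marker lists were compared with the 4 genes in the same way, in 76 relations with 19 lists. By rho, Serpinf1 was closest to the osteoblast list among the marker lists, at 0.798 against the mean of its 11 measured genes, which ranged from 2.13 in cell 14 to 7.76 in cell 13, and 0.216% of the rows compared reached that. With each cell left out it lay between 0.747 and 0.846, but Pearson's r was 0.597, below the 0.771 of the fibroblast matrix list. For the macrophage list and Serpinf1, rho was -0.231, and -0.0385 without cell 14, while Pearson's r was -0.741. Cell 14 had the lowest Serpinf1 level, the highest macrophage mean and the lowest fibroblast matrix mean. Pearson's r was not recomputed without it. Of the single matrix genes Col1a2, a chain of type I collagen, had a rho of 0.719 with Serpinf1. The rho with the osteoblast list was 0.464 for Cst3, 0.240 for Apod and -0.0330 for Gsn. The fibroblast matrix list had a rho of 0.437 with Serpinf1, 0.363 with Cst3, 0.323 with Apod and -0.191 with Gsn. For Serpinf1 that value was 0.0909 without cells 6, 8, 11 and 14. The pan-haematopoietic list had a rho of 0.332 with Apod, 0.323 with Gsn, 0.0440 with Cst3 and -0.196 with Serpinf1. For Serpinf1 the direction turned, to 0.168 without cells 11 and 14 and to 0.442 without cells 6, 8, 11 and 14, and without these 4 cells the value was 0.588 for Apod and 0.413 for Cst3. Among the marker lists, Apod was closest to the stem and progenitor list, with a rho of 0.745, which 0.647% of the rows compared reached. With each cell left out this rho lay between 0.709 and 0.813. The adipocyte list followed at 0.675, which 6.03% reached. Its 4 measured genes were Fabp4, detected in 14 cells, Lpl in 12, Plin1 in 5 and Cebpa in 1. Their rho with Apod was 0.833 for Lpl, 0.697 for Plin1, 0.0813 for Fabp4 and 0.00768 for Cebpa. Of the 9 stem and progenitor genes detected in at least 7 cells, 2 had a rho of 0.7 or more with Apod, where 3.37% of rows did. They were Cxcl12 (0.833), which is also on the other secreted list, and Lepr (0.758). Over the 9 the median was 0.319, with 7 above 0 and 2 below. Prrx1 was at 0.108, Ly6a at 0.196 and Cd44 at -0.106. Of the 7 endothelial markers 3 had a row, and their mean, 0.73 in cell 14 to 3.26 in cell 6, had a rho of 0.767 with Gsn. With each cell left out, the rho with Gsn lay between 0.720 and 0.824. With Apod the rho of the endothelial mean was 0.503. Pecam1 was detected in 13 cells, Emcn in 6 and Tek in 3. The rho with Apod was 0.864 for Pecam1, 0.133 for Tek and -0.0160 for Emcn. With Gsn it was 0.662 for Pecam1, 0.400 for Emcn and 0.146 for Tek. The part of endothelial RNA in these levels was not tested. Relations with the stem and progenitor, adipocyte and endothelial lists were not recomputed without cells 11 and 14, or without cells 6, 8, 11 and 14.

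**Figure D4:**
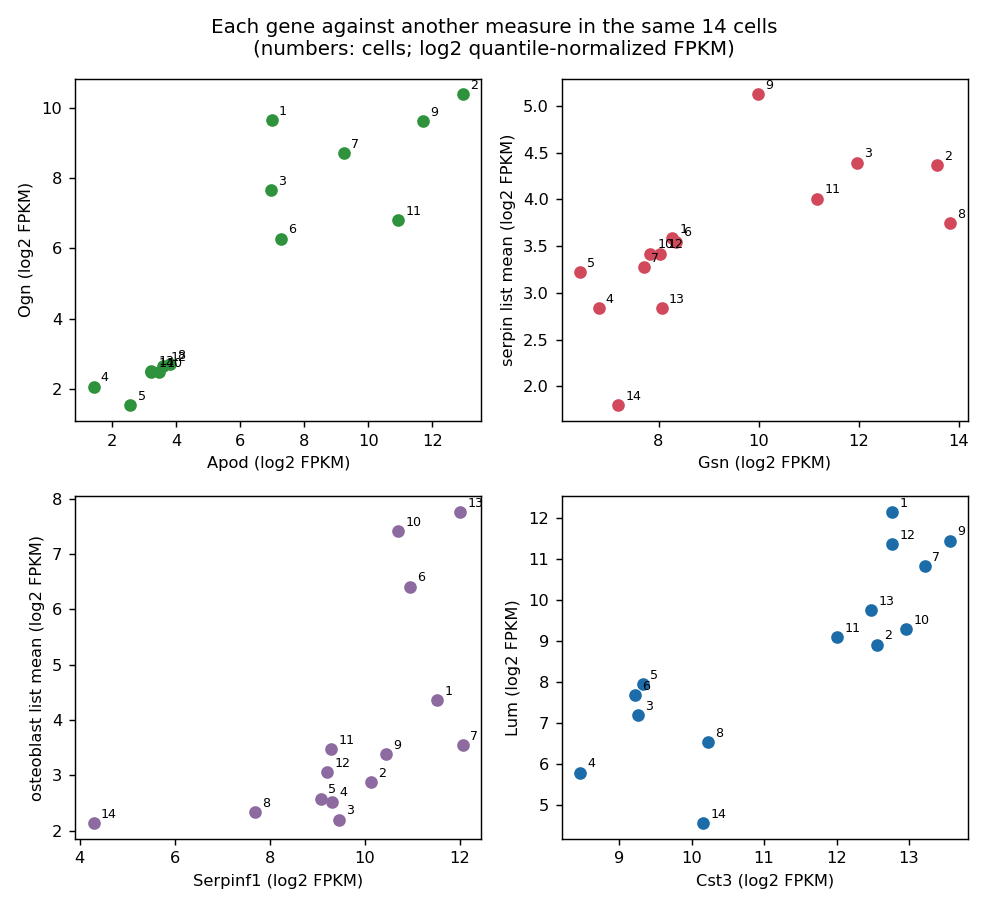
Each of the 4 genes (horizontal axes) against another measure in the same cell (vertical axes), all in log2 quantile-normalized FPKM, with cell numbers beside the 14 points of each panel. Apod and Ogn form a low and a high cloud of 7 cells each (rho 0.916), and the other panels show Gsn with the serpin list mean (0.824), Serpinf1 with the osteoblast list mean (0.798) and Cst3 with Lum (0.829).

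Genes of cysteine cathepsins and legumain, among them proteases that cystatin C inhibits, were measured as RNA in the same cells. All 11 genes of the cysteine cathepsin and legumain list were measured, 9 of them detected in 7 cells or more and 5 in every cell. The medians were 7.96 for Ctsl, 6.89 for Ctsb, 6.48 for Ctsk, the cathepsin of bone resorption, 6.43 for Ctsh and 6.20 for Ctsz. Each was below the median of Cst3, 12.24, on the per-length scale. Ctss, the cathepsin of antigen-presenting cells, was at 9.06 in cell 14 and at 2.84 or below in the others. The rho with Cst3 was 0.519 for Ctsb, 0.440 for Ctsl, 0.436 for Ctsk and 0.0132 for Ctsh. It was 0.196 for the list mean, which 22.9% of the rows compared reached.

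Among the cystatins 10 of 16 had a row. Beside Cst3, Cstb, which encodes the intracellular inhibitor cystatin B, was present in every cell, at 8.07 to 12.96 with a median of 9.92. The other 8 were each detected in 1 to 7 cells. They included the stefin A genes Stfa1, at 10.62 in cell 11, and BC100530, at 11.33 in cell 11, which are near-identical copies whose reads are uncertain. The rho of Cstb with Cst3 was -0.29.

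Gelsolin's relatives and partners gave a different picture from Gsn itself. Of the gelsolin family 6 of 8 had a row, and besides Gsn only Capg, which caps actin filaments, was present in every cell, at 2.89 to 7.85 with a median of 6.29. Svil was detected in 12 cells, Flii in 11, Vill in 2 and Avil in 1. The rho of Capg with Gsn was -0.38. Of 17 genes of actin turnover 16 were measured, 15 in 7 cells or more and 10 in every cell, with medians of 9.12 for Actb, 9.20 for Actg1, 9.26 for Pfn1 and 7.28 for Cfl1. The mean of that list had a rho of -0.745 with Apod, -0.727 with Serpinf1, -0.541 with Cst3 and -0.407 with Gsn. The share of rows that low or lower was 0.361% for Apod, 0.361% for Serpinf1, 5.05% for Cst3 and 11.4% for Gsn. Among the 15 genes, Serpinf1 had a rho of -0.5 or less with 6, which 3.93% of rows had, the lowest being -0.811 for Cap1 and -0.749 for the cofilin gene Cfl1. Apod had it with 4 (5.23% of rows), Gsn with 3 (5.11%) and Cst3 with 1 (2.8%). The actin list mean was highest in cell 14, at 7.01, where the pan-haematopoietic mean was highest too. It was next highest in cells 4 and 5, at 6.88 and 6.52, where the pan-haematopoietic means were lowest, at 1.51 and 1.57. The part of blood cell RNA in the actin list was not tested. Without cells 11 and 14 the rho with the actin list mean was -0.839 for Apod, -0.601 for Serpinf1, -0.515 for Cst3 and -0.371 for Gsn.

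Of the lipocalin and apolipoprotein list 7 of 13 had a row. Besides Apod, 3 were present in every cell, and their medians were 7.63 for Lcn2, a lipocalin of neutrophil granules, 3.53 for the clusterin gene Clu and 3.07 for Apoe. Lcn2 was highest in cell 11, at 12.39. The rho with Apod was 0.73 for Clu, 0.63 for Apoe and 0.37 for Lcn2. Rbp4, the retinol carrier gene, was found in 8 cells, highest in cell 7 at 10.36.

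Serpinf1 had the highest median of the 13 serpin genes with a row, of 18 fixed. Serpinb6a (7.29), Serping1 (7.04) and the collagen chaperone gene Serpinh1 (6.82) were also detected in all 14 cells, and Serpine2, a secreted inhibitor of thrombin, in 13, with a median of 7.03 and 12.65 in cell 9. The rho of these with Serpinf1 was 0.44 for Serpinh1, 0.358 for Serping1, 0.138 for Serpine2 and -0.20 for Serpinb6a. The mean of the 12 other serpins had a rho of 0.0769 with Serpinf1, but of 0.824 with Gsn, which none of the rows compared reached, and of 0.780 with Apod, which 0.216% did. The rho with Gsn was 0.811 for Serpine2 and 0.640 for Serping1. Of 5 genes listed as receptors for the Serpinf1 protein, Rpsa and Plxdc2 were present in every cell, at medians of 7.47 and 5.99, Lrp6 in 13, Pnpla2 in 8 and Plxdc1 in 1. Plxdc2 had a rho of 0.833 with Gsn and -0.07 with Serpinf1.

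**Figure D5:**
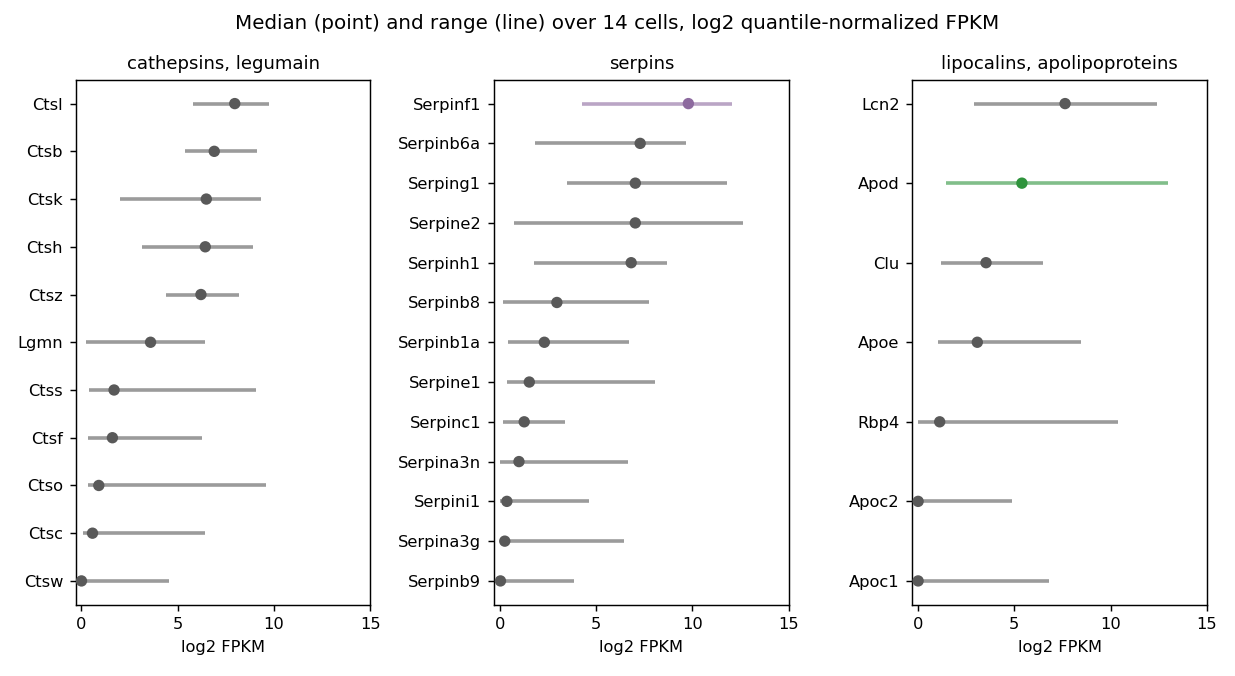
Median (point) and range (line) over 14 cells of the cathepsin and legumain genes, of the serpins and of the lipocalins and apolipoproteins (log2 quantile-normalized FPKM, horizontal axes). Serpinf1 (9.79, coloured) has the highest median of the serpins, and Apod (5.39, coloured) lies below Lcn2 (7.63) but has the widest range of its panel.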

How the data were processed

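The data are 1 table of 9558 gene rows and 14 cells from SMART-Seq v4 3′ and Nextera XT libraries, per the labels' protocols. The submitters' processing notes name TopHat2, Cufflinks and GRCm38 and give no version. The deposited values are log2 values, read here as quantile-normalized log2(FPKM + 1). This reading rests on the table itself: the maximum was 14.58 in every cell, and cells differed by at most 0.0246 at any of the 7304 ranks with values above 0 throughout. FPKM divides by transcript length although 3′ reads do not grow with it.

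All 14 columns were matched by title and 0 were left over. Cells count as 1 sample, so no p-value is given and SDs describe these cells only. The 4 genes and all lists were chosen with earlier results of these data known. Named genes are the 4, list genes, and for each of the 4 the 5 rows with the highest Spearman's rho among rows at 1 or more in all cells, leaving out ribosomal, mitochondrial, Gm, Rik and small RNA symbols. List means leave out the 4 genes. GENCODE lengths matched 9544 rows. Python 3.11.15, pandas 2.3.3, numpy 2.4.6 and scipy 1.17.1 were used, and the ranking was tested on simulated data. Alternatives were other thresholds, cells left out, Pearson's r, the length division undone, a pseudocount of 10 and the mean for the median.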

Additional observations from a re-analysis of the deposited data

How the results depend on the processing

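Median levels of the 4 genes moved by less than the SD of the gene under every alternative run on them. The median within-cell percentile moved most for Apod, from 82.6 to 78.0 among rows above 0 only. It was 78.5 for Apod with the length division undone. Apod was detected in 12 cells at a threshold of FPKM 5, in 10 at FPKM 10 and in 7 at log2 5. With the length division undone, Gsn was lowest in 1 cell and Serpinf1 highest in 4. Without the 2 cells farthest from the first gene's median, a setting chosen after seeing the data, as was leaving out each cell, rho was 0.651 for Cst3 and Serpinf1 and 0.266 for Gsn and Serpinf1. Pearson's r was 0.771 for Serpinf1 with the fibroblast matrix list, 0.597, -0.282 and -0.102 for Serpinf1, Gsn and Apod with the osteoblast list, 0.401 for Serpinf1 with the serpins and -0.538 with the pan-haematopoietic list. Without cells 11 and 14, rho was -0.140 for Serpinf1 with the serpins and 0.168 with the pan-haematopoietic list. Without cells 6, 8, 11 and 14 it was 0.0909 for Serpinf1 with the fibroblast matrix list, and 0.413, 0.588 and 0.442 for Cst3, Apod and Serpinf1 with the pan-haematopoietic list.

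With each cell left out in turn, rho ran between -0.121 and 0.220 for Cst3 and Gsn, -0.170 and 0.231 for Gsn and Serpinf1, -0.396 and -0.0495 for Gsn with the fibroblast matrix list, and 0.391 and 0.688 for Cst3 with the osteoblast list. For Gsn it ran between -0.253 and 0.137 with the osteoblast list and 0.516 and 0.802 with the other secreted list. For Serpinf1 it ran between -0.154 and 0.258 with the serpins and -0.346 and 0.00549 with the pan-haematopoietic list, and for Cst3 with that list between -0.195 and 0.168. At FPKM 5 and at FPKM 10 alike, 1 cystatin, 5 serpins and 2 Serpinf1 receptors were detected in at least 7 cells, and 2 lipocalins and apolipoproteins at FPKM 10. Of the 5 genes named as most like each gene, Pearson's r kept 4 for Cst3, 3 for Gsn, 4 for Apod and 1 for Serpinf1, admitting rows detected in at least 7 cells kept 3, 2, 2 and 2 in the same order of genes, and leaving out cells 11 and 14 kept 3, 4, 4 and 2. The causes were not tested. No paired analysis was possible because there is 1 group only. Depth is unknown, so no interval could be given for a low level.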
